A study of Mus musculus with 36 samples.

Results

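The 9 genes described here carry out the transport of retinoids and the formation and breakdown of retinoic acid in mouse brown pre-adipocytes and the adipocytes made from them. They were taken by name from the 55536 genes counted in each of 36 RNA sequencing libraries. They were the retinol transporter *Stra6*, the retinol-retinaldehyde enzymes *Rdh10* and *Dhrs3*, the retinaldehyde dehydrogenases *Aldh1a1*, *Aldh1a2* and *Aldh1a3*, the retinoic acid binding proteins *Crabp1* and *Crabp2*, and the retinoic acid hydroxylase *Cyp26b1*. The cells were 2 clones, 48 and 66, in which Cas9 had been used to knock out *Rxra*, the gene of the nuclear receptor RXRα. Each Rxra-/- clone had been transduced with a retroviral vector that gave back mouse *Rxra*, either wild type (*Rxra*WT, labelled WT) or with alanine in place of serine at the phosphorylation site (*Rxra*SA, labelled S22A). All groups thus shared the Rxra-/- background and a vector. The cells were grown to confluence in medium that already held insulin and triiodothyronine, and both were kept afterwards. RNA was taken at confluence (day 0) and after 2 and 6 days of differentiation, with dexamethasone, isobutylmethylxanthine and indomethacin present from day 0 to day 2. There were 3 replicates of each clone, genotype and day. Each clone was sequenced as its own library pool, so that clone and pool cannot be told apart.

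As background, STRA6 lets retinol, the circulating form of vitamin A, enter cells. RDH10 oxidises retinol to retinaldehyde and DHRS3 reduces retinaldehyde back to retinol. ALDH1A enzymes oxidise retinaldehyde irreversibly to retinoic acid, the ligand of the RAR receptors, which bind DNA as dimers with RXRs. CRABP2 carries retinoic acid to the nucleus, CRABP1 holds it in the cytoplasm, and CYP26B1 hydroxylates it for removal. In cultured pre-adipocytes, retinoic acid given early in differentiation is known to inhibit fat cell formation, and RXRα is also the partner of PPARγ, the receptor that drives it.

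Libraries held from 11351078 to 24349263 counts, the shallowest being replicate 1 of clone 48, *Rxra*SA, at day 0. Leaving that library out changed no call of a member. The adipocyte markers *Adipoq*, *Fabp4* and *Plin1* rose with differentiation, and the summed level of 8 adipocyte markers went from 126 to 228 CPM at day 0 to 6180 to 10190.0 CPM at day 6, where CPM is the count of a gene relative to the TMM-scaled size of its library. *Ucp1*, the defining gene of thermogenic brown fat, had at most 5 counts in any library. Of 6 skeletal muscle markers *Myod1* was at 0 counts throughout, while *Acta1*, the 1 tested, rose (log2 1.81 from day 0 to day 6), and their sum was at most 4.17 CPM at day 0 and 5.73 to 11.8 CPM at day 6. At day 0 the mean CPM of *Rxra* was 166 ± 45.0 with the wild-type vector and 157 ± 37.6 with the S22A vector (SD, n = 6 each), and these counts cannot separate vector from endogenous transcripts. The design text names the replicates technical and the study's methods name them independent, so that p-values measure the spread between these libraries.

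RefSeq promoter windows of build GRCm38.p6 were found for 6 of the 9 members, and not for *Rdh10*, *Crabp2* and *Aldh1a3*. The windows of *Dhrs3* and *Aldh1a1* are shown as those of the most abundant member that rose and the most abundant falling member with a window. Each holds the 250 bases before an annotated start (that of *Aldh1a1* is the inner one of its annotated starts, and 7 of the bases are exonic), on the plus strand, at chr4:144892577-144892826 for *Dhrs3* and chr19:20601718-20601967 for *Aldh1a1*. The counts did not tell the starts of a gene apart. Capitals mark the motif CCAAT or a nuclear receptor half-site, and neither window held TATAAA or GGGCGG. The half-site was spelled AGGTCA in its standard form, and in 3 variants that differ within its first letters, one of them the GGGTCA found here. Both strands were searched.
Dhrs3: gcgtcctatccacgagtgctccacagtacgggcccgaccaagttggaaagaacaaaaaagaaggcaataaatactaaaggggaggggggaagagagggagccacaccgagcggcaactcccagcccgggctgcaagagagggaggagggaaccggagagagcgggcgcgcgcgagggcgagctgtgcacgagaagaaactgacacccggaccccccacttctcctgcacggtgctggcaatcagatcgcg
Aldh1a1: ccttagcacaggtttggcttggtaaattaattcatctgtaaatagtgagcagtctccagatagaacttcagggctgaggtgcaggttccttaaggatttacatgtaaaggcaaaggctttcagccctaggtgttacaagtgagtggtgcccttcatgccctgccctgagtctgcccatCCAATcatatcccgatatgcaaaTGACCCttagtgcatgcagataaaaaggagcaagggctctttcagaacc
The *Aldh1a1* window held CCAAT from 72 bases and a GGGTCA, on the other strand, from 49 bases before the start, and the *Dhrs3* window shown held none of these motifs, while those of its 2 other annotated starts held CCAAT. The window of the outer *Aldh1a1* start, at chr19:20492333-20492582, held none of these motifs. Among 32851 mouse windows of this length, 33.8% held CCAAT, 32.7% held GGGCGG, 12.4% held TATAAA, 14.0% held AGGTCA and 38.6% held a half-site in at least one of 4 spellings. Direct repeats of AGGTCA spaced by 5 or by 2 bases, which contain the half-site, were in none of the members' windows and in 0.00913% of all windows each. The GC content was 61.6% in the *Dhrs3* window and 46.4% in the *Aldh1a1* window.

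Levels were compared between members as FPKM, the CPM divided by the exonic length in kilobases. *Dhrs3* was highest on every day, going from 5.03 ± 1.33 FPKM at day 0 through 9.45 ± 1.15 at day 2 to 14.7 ± 2.56 at day 6 (SD, n = 12 each). *Rdh10* came next with 4.07 ± 0.761, 4.64 ± 0.467 and 2.91 ± 0.488 FPKM on the same days. *Aldh1a1* followed with 1.03 ± 0.814, 0.897 ± 0.374 and 0.341 ± 0.144 FPKM. The other 6 members had mean levels under that of *Aldh1a1* on every day, from 0.802 FPKM for *Crabp2* at day 0 down to 0 for *Aldh1a2* at days 2 and 6. At day 0 *Dhrs3* and *Rdh10* overlapped in their ranges, while at days 2 and 6 the lowest *Dhrs3* library lay above the highest *Rdh10* library. *Rdh10* stayed above *Aldh1a1* without overlap on all 3 days. Neighbours further down the order overlapped on each day, apart from *Aldh1a1* and *Crabp2* at day 2.

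To see how retinoid metabolism changed as the cells differentiated, the days were compared over both genotypes and both clones. The 2 genotypes' same-numbered libraries deviated together but entered as separate libraries, without a block for pairs. The SEs and adjusted p-values of all differences between days may thus be too small. *Dhrs3* rose throughout, *Aldh1a1* and *Rdh10* fell after day 2, and *Crabp2* and *Cyp26b1* fell in the first 2 days. Only 5 of the 9 members passed the filter on low counts. *Crabp2* passed it through its day 0 libraries, so that its day differences and any count over the 5 were shaped by the filter. *Cyp26b1* also passed it when the libraries of days 2 and 6 were taken alone. From day 0 to day 2, 4 of these 5 were called at an adjusted p under 0.05, against 73.3% of 16723 genes tested, with 2 members higher (35.8% of genes) and 2 lower (37.5%). From day 2 to day 6, 3 were called against 62.0% of genes, 1 higher (31.9%) and 2 lower (30.1%). From day 0 to day 6, all 5 were called against 68.3% of genes, 1 higher (32.9%) and 4 lower (35.4%). Most genes tested moved with differentiation, and nothing particular to these genes can be read from such counts. The pre-adipocyte and fibroblast markers fell over the same days in 4 of 4 tested of 6 listed, their sum going from 142 to 575 CPM at day 0 to 30.7 to 143 CPM at day 6, and all 7 tested adipocyte markers rose. The part of these shifts in the members' changes was not tested. Among the markers, *Cd34*, *Plin1* and *Cidea* passed the filter through days on which they were high, which shaped these marker counts. In these bulk samples, fewer cells of a type and less RNA per cell cannot be told apart.

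*Rdh10*, which makes retinaldehyde from retinol (chromosome 1, 16105774 to 16133734, plus strand), had 155 to 395 counts in every library. In clone 48 its lowest, median and highest CPM were 16.9, 18.7 and 22.6 at confluence. They were 18.6, 20.2 and 23.1 on day 2 and 9.21, 12.5 and 14.7 on day 6. In clone 66 they were 12.2, 14.3 and 16.6 at confluence, followed by 16.5, 18.5 and 19.7 on day 2 and by 8.53, 12.2 and 14.5 on day 6. All 12 libraries of day 6 lay below all 12 of day 2. The fall between days 2 and 6 was -0.66 on the log2 scale (SE 0.090, adjusted p = 7.25e-08, edgeR), and between days 0 and 6 it was -0.47 (SE 0.090, adjusted p = 2.53e-05). From day 0 to day 6 the log2 ratio of mean CPM was -0.673 in clone 48, where the ranges did not overlap. In clone 66 it was -0.26, and the ranges overlapped. The difference between days 0 and 2 was 0.20 (SE 0.089, adjusted p = 0.0447). That small rise rested on the scaling, since with library size alone it was -0.06 (adjusted p = 0.556), and it was no longer called when any of 5 replicates was left out, clone 48 replicates 1 and 3 or clone 66 replicates 1, 2 and 3 (log2 difference 0.16 to 0.22), or without the clone term (0.19) or with a filter of 1 CPM in 6 libraries (0.17). Library size alone moved the median of all genes by -0.26 in this comparison.

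*Dhrs3*, which returns retinaldehyde to retinol and is known to be induced by retinoic acid (chromosome 4, 144892827 to 144928209, plus strand), had 179 to 928 counts. In clone 48 its lowest, median and highest CPM were 13.7, 17.8 and 22.2 at confluence, followed by 27.1, 28.7 and 31.9 on day 2 and by 42.2, 50.0 and 52.6 on day 6. In clone 66 they were 9.96, 11.7 and 14.5 at confluence, then 21.5, 26.3 and 30.7 on day 2 and 31.6, 36.9 and 42.8 on day 6. Within each clone no library overlapped between any 2 days. The gene rose by 0.94 on the log2 scale from day 0 to day 2 (SE 0.083, adjusted p = 3.22e-12) and by 0.62 from day 2 to day 6 (SE 0.082, adjusted p = 4.52e-08). Over the whole course it rose 2.95-fold (log2 1.56, SE 0.084, adjusted p = 5.66e-18). Over 18 settings of the analysis, the whole rise lay between 1.37 and 1.63 on the log2 scale and was called in each.

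**Figure D1:**
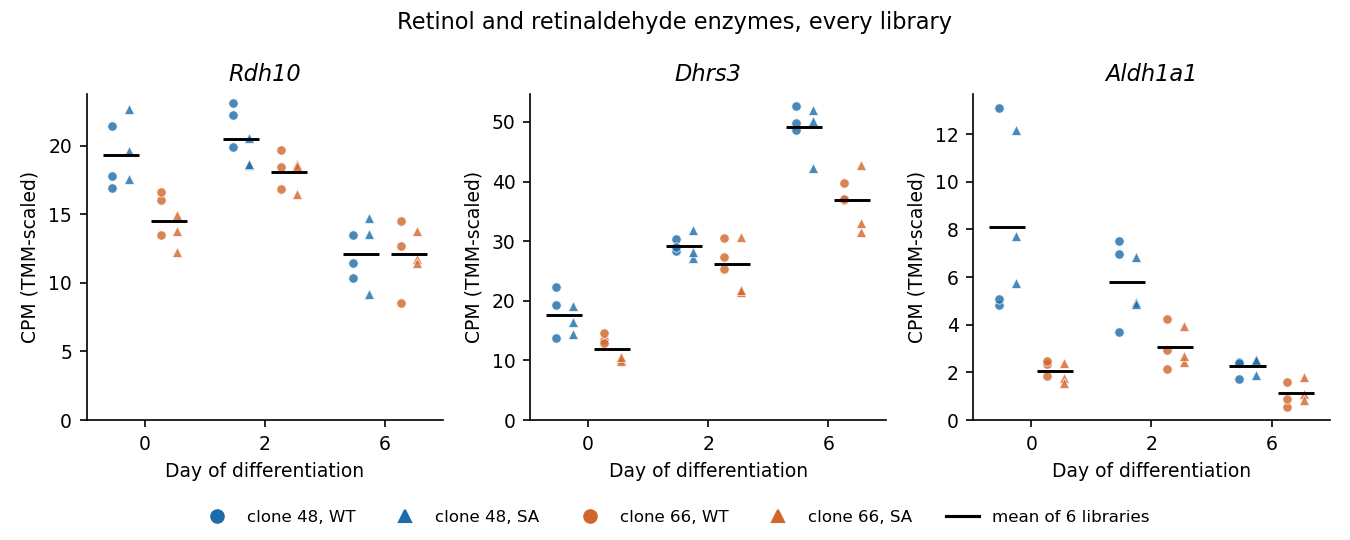
TMM-scaled CPM of *Rdh10*, *Dhrs3* and *Aldh1a1* in each of the 36 libraries by day of differentiation, coloured by clone, with circles for WT, triangles for SA and a bar at the mean of 6 libraries. *Dhrs3* climbed from a mean of 17.6 to 49.2 CPM in clone 48 and from 11.9 to 36.9 in clone 66, while *Aldh1a1* at day 0 was 8.11 in clone 48 and 2.06 in clone 66.

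The ratio of *Dhrs3* to *Rdh10*, the reductive to the oxidative enzyme, was calculated per library from FPKM. It averaged 1.24 ± 0.249 at confluence, then 2.04 ± 0.214 on day 2 and 5.23 ± 1.46 on day 6 (SD, n = 12 each). At day 0 one library lay below 1, at 0.968, and by day 6 the ratio ran from 3.26 to 8.02. It concerns transcripts, and says nothing on the activity of the enzymes.

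*Aldh1a1*, which converts retinaldehyde to retinoic acid (chromosome 19, 20492715 to 20643465, plus strand), differed most between libraries at day 0. In clone 48 at day 0 the *Rxra*WT replicates had 4.84, 5.09 and 13.1 CPM, and those with *Rxra*SA had 5.75, 7.74 and 12.2 CPM. Replicate 3 was the highest in both genotypes. In clone 66 the lowest, median and highest values were 1.55, 2.09 and 2.49 CPM at confluence, then 2.13, 2.80 and 4.25 on day 2 and 0.536, 0.990 and 1.79 on day 6. In clone 48 they were 3.71, 5.89 and 7.50 on day 2 and 1.70, 2.41 and 2.55 on day 6. Within each clone, every library of day 6 lay below every library of day 2. The gene fell by 1.42 on the log2 scale between days 2 and 6 (SE 0.215, adjusted p = 6e-07) and by 1.44 between days 0 and 6 (SE 0.214, adjusted p = 3.44e-07). From day 0 to day 6 the log2 ratio of mean CPM was -1.851 in clone 48, without overlap, and -0.876 in clone 66, with overlap. Between days 0 and 2 the difference was -0.02 (SE 0.206, adjusted p = 0.951), and its sign changed between settings.

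Of the other retinaldehyde dehydrogenases, *Aldh1a3* (chromosome 7, 66390890 to 66427517, minus strand) had 3 to 22 counts per library at day 0, 0 to 6 at day 2 and 0 to 4 at day 6. Summed over 12 libraries these were 120, 36 and 24 counts, or 0.560, 0.163 and 0.106 CPM. *Aldh1a2* (chromosome 9, 71215789 to 71296243, plus strand) had 4 counts in all, spread over 3 day 0 libraries of clone 48, and 0 counts at days 2 and 6, which allows up to 0.0136 and 0.0133 CPM over each day's libraries (3 counts, counting error only). *Aldh1a1* thus made up 87.3% ± 6.13 of the summed FPKM of the 3 genes at confluence, then 95.6% ± 3.06 on day 2 and 92.1% ± 8.06 on day 6 (SD, n = 12 each). *Aldh1a3* made up the rest apart from these few *Aldh1a2* counts, with up to 24.5% at day 0 and up to 30.0% at day 6, both in clone 66 libraries.

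*Crabp2*, the nuclear carrier of retinoic acid (chromosome 3, 87948666 to 87953376, plus strand), was a gene of few reads. At day 0 it had 1 to 9 counts in clone 48 and 21 to 53 in clone 66, and at days 2 and 6 it had 0 to 7 counts in either clone. The groups did not overlap between clones at day 0. The fall from day 0 to day 2 was -3.05 on the log2 scale (SE 0.387, adjusted p = 1.22e-08) and from day 0 to day 6 it was -2.53 (SE 0.359, adjusted p = 1.41e-07). In clone 66 every later library lay below every day 0 library, and in clone 48 the ranges overlapped. *Cyp26b1*, which clears retinoic acid (chromosome 6, 84571414 to 84593908, minus strand), had 7 to 119 counts at day 0, 1 to 17 at day 2 and 3 to 19 at day 6. At day 0 in clone 66, replicates 1 to 3 with *Rxra*WT had 0.458, 0.860 and 4.56 CPM, and those with *Rxra*SA had 0.701, 1.74 and 2.93 CPM. Replicate 3 held the highest value in each clone and genotype at day 0. The gene fell by 2.18 on the log2 scale between days 0 and 2 (SE 0.390, adjusted p = 7.18e-06) and by 1.51 between days 0 and 6 (SE 0.355, adjusted p = 0.000331). Between days 2 and 6 the difference was 0.67 (SE 0.448, adjusted p = 0.199), and it was called without clone 48 replicate 3 (log2 1.25, adjusted p = 0.0254).

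**Figure D2:**
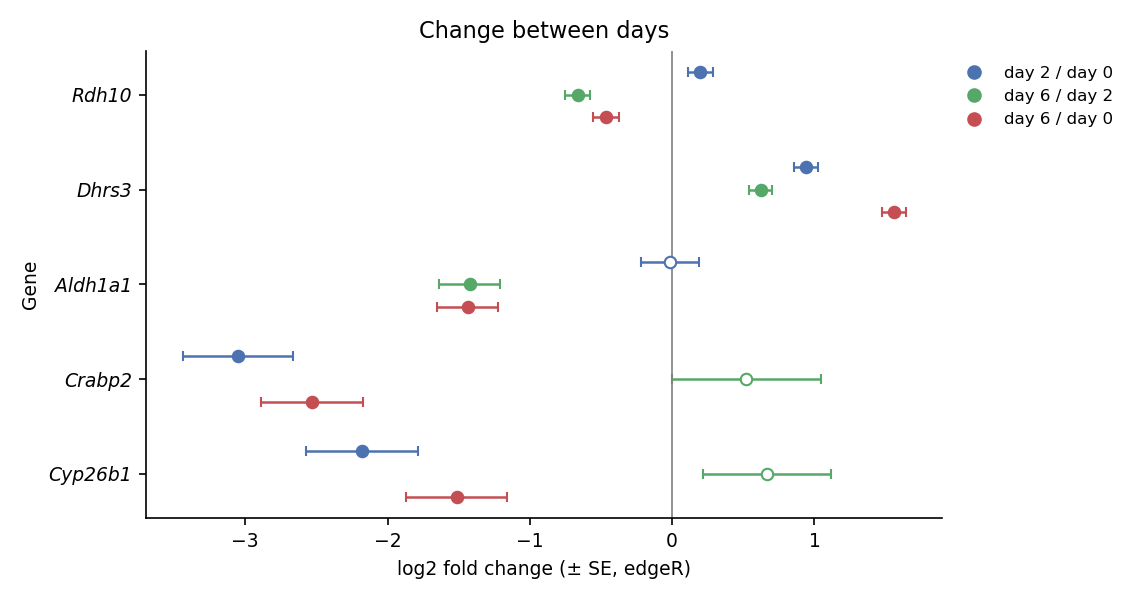
Log2 fold change from edgeR, with SE derived from its test, for the 5 members that passed the filter, between each pair of days, with filled points for an adjusted p under 0.05 and open points for the others. *Dhrs3* lies to the right of 0 in each comparison, *Rdh10* and *Aldh1a1* lie to the left of it from day 2 to day 6, and *Crabp2* reaches -3.05 from day 0 to day 2.

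*Stra6*, the retinol transporter (chromosome 9, 58063788 to 58153996, plus strand), had 2 to 11 counts in every day 0 library and 0 to 2 counts afterwards. Within each clone its CPM did not overlap between day 0 and either later day. Pooled over 12 libraries it had 76 counts at day 0, 10 at day 2 and 8 at day 6, which is 7.83-fold and 10.04-fold lower relative to the total counts. *Crabp1* (chromosome 9, 54764748 to 54773110, plus strand) had 24 counts in 9 libraries of day 0, none at day 2 and 6 counts in 5 libraries of day 6. At day 2 it was at least 8.24-fold lower than at day 0, counted against a floor of 3 counts over the group. These 2 genes, *Aldh1a2* and *Aldh1a3* did not pass the filter. When no filter was used, *Stra6* gave -2.53 (adjusted p = 3.4e-07) and *Aldh1a3* -1.42 (adjusted p = 0.000154) from day 0 to day 2, and *Crabp1* was called as well, so that 7 of 9 members were called for that step, against 41.6% of 36853 genes in that fit, and 8 for day 0 to day 6, against 38.2%. Fitted values of genes with a group at 0 depend on the prior count. All 4 of these genes, like *Crabp2* and *Cyp26b1*, had their highest pooled level at day 0.

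**Figure D3:**
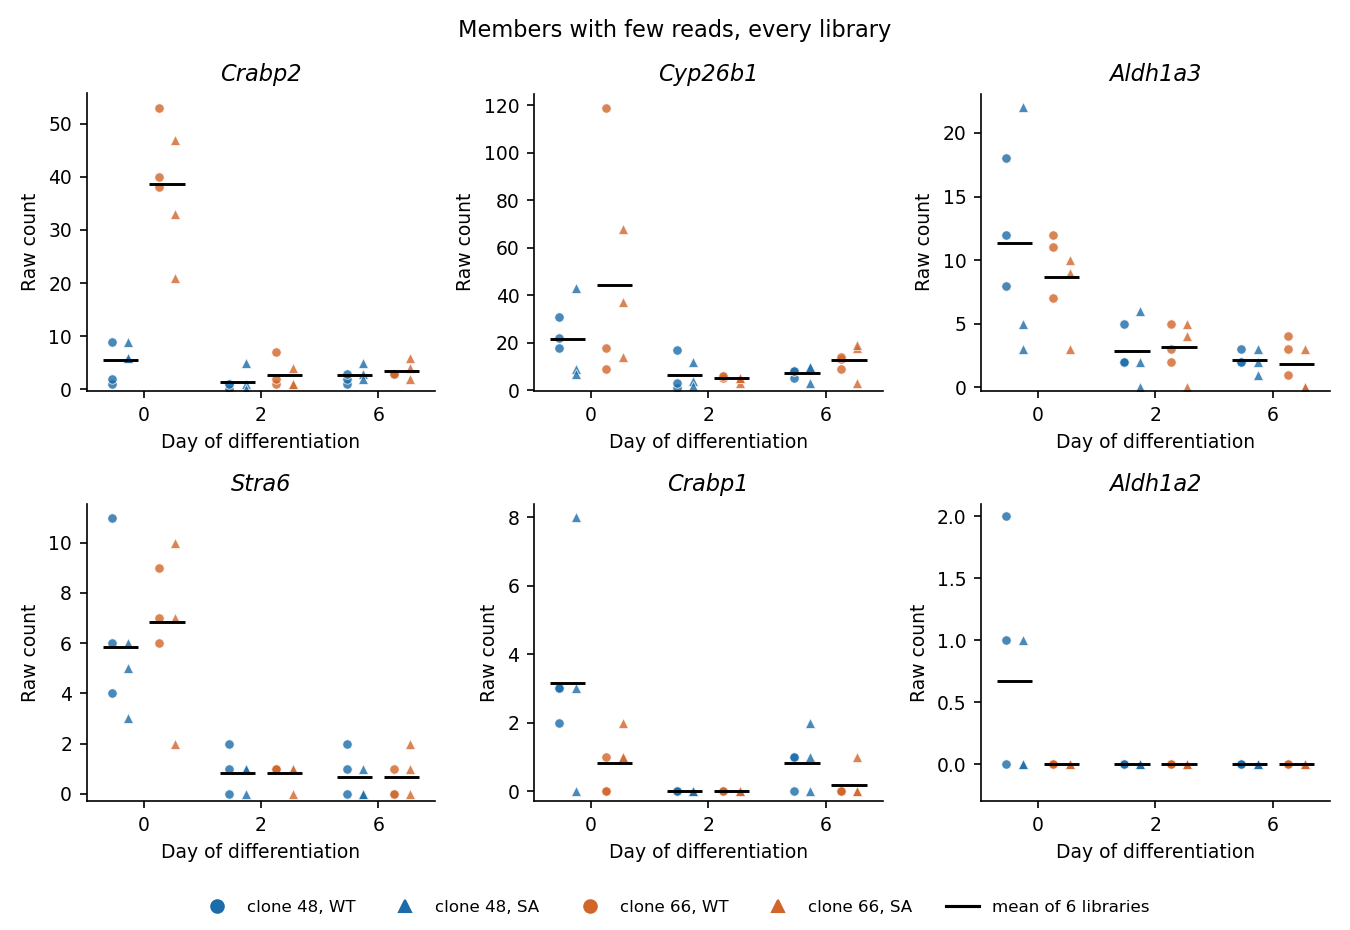
Raw counts of the 6 members with few reads in each of the 36 libraries by day, coloured by clone, with circles for WT, triangles for SA and a bar at the mean of 6 libraries. Counts were highest at day 0, where *Crabp2* had 21 to 53 counts in clone 66 and 1 to 9 in clone 48.

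The study asked whether the S22A exchange in RXRα alters gene expression. None of the 5 tested members was called for genotype at day 0, 2 or 6, where edgeR called 0% of 16723 genes and 139, 162 and 125 genes had an unadjusted p under 0.05. *Rdh10* differed by -0.03 (95% interval -0.28 to 0.22), -0.10 (-0.35 to 0.14) and 0.07 (-0.18 to 0.32) on the log2 scale at days 0, 2 and 6. *Aldh1a1* differed by 0.02 (-0.53 to 0.57), -0.08 (-0.64 to 0.48) and 0.21 (-0.42 to 0.84). For *Crabp2* and *Cyp26b1* the intervals were wider. That of *Crabp2* at day 2 ran from -1.69 to 1.74, so that differences of this size were not detectable in this fit. These intervals leave the pairing of same-numbered libraries out. With a block for each pair of a clone and day, the SE at day 0 was 0.14 in place of 0.280 for *Aldh1a1* and 0.083 in place of 0.126 for *Rdh10*. For *Crabp2* and *Cyp26b1* it was 0.237 each, in place of 0.403 and 0.436, and no member was called. With this block, 704, 692 and 477 genes had an unadjusted p under 0.05 in edgeR at days 0, 2 and 6. The lower counts without the block thus do not measure how few genes differ.

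*Dhrs3* at day 0 came nearest to a difference. Its mean was 16.0 ± 3.83 CPM with the wild-type and 13.5 ± 3.85 CPM with the S22A receptor (SD, n = 6 each), and the groups overlapped over both clones. In clone 66 the 3 *Rxra*WT libraries ran from 12.9 to 14.5 CPM and the 3 *Rxra*SA libraries from 9.96 to 10.6 CPM, without overlap, and in clone 48 the genotypes overlapped. It was lower in *Rxra*SA in 5 of 6 same-numbered pairs, in all 3 of clone 66 and in 2 of 3 of clone 48. The log2 difference was -0.26 (SE 0.118), with an unadjusted p of 0.0313 in edgeR and an adjusted p of 1. The test of this difference between clones gave -0.28 (SE 0.219, adjusted p = 0.984). With a block for each pair of a clone and day it was -0.27 (SE 0.072), with an unadjusted p of 0.00128 and an adjusted p of 0.807. At days 2 and 6 it was -0.10 (SE 0.116) and -0.07 (SE 0.115) without the block, and -0.10 (SE 0.068) and -0.08 (SE 0.066) with it. With the same block, 1 gene of all those tested was called at day 2 in place of none, *Chn1*, named here after its value was seen, and no member. For the change between days, no member and 0% of genes were called between genotypes, with 128 to 153 genes at an unadjusted p under 0.05. The effect of genotype was likewise called different between clones for no member and 0% of genes, with 200 to 283 genes at an unadjusted p under 0.05. Both of these sets of counts came from fits without a block for pairs. DESeq2 called 0 genes for genotype on each day and for its change between days.

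**Figure D4:**
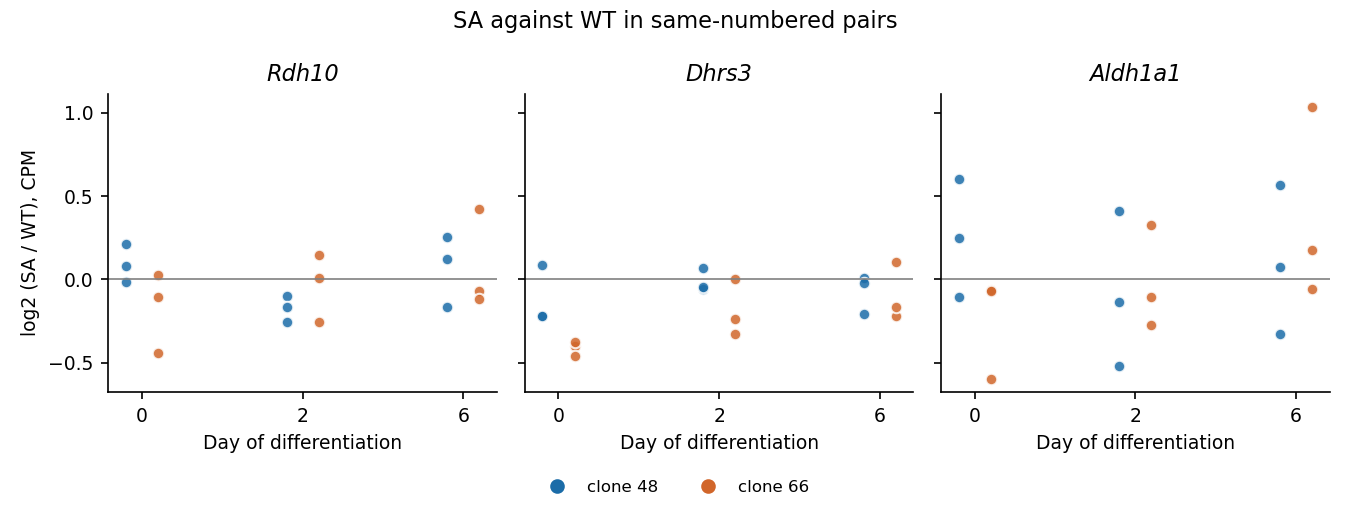
Log2 ratio of CPM, SA over WT, in the 3 same-numbered pairs of each clone on each day for *Rdh10*, *Dhrs3* and *Aldh1a1*, with a line at 0. At day 0 *Dhrs3* lies below 0 in 5 of 6 pairs, and pairs of *Rdh10* and *Aldh1a1* lie on both sides of it on each day.

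The clones were compared over both genotypes. Same-numbered libraries of the 2 genotypes deviated together but entered this comparison as separate libraries, without a block for pairs. The SEs and adjusted p-values of the clone differences may thus be too small. *Aldh1a1* was lower in clone 66 on every day, *Crabp2* was higher there at day 0, and *Dhrs3* was lower there at days 0 and 6. At day 0, 4 of the 5 tested members were called, against 23.7% of all genes, with 1 higher in clone 66 (12.6% of genes) and 3 lower (11.1%). *Aldh1a1* was 3.94-fold lower in clone 66 than in clone 48 (log2 -1.98, SE 0.267, adjusted p = 1.33e-06), and *Crabp2* was 5.80-fold higher (log2 2.54, SE 0.354, adjusted p = 2.25e-06). Neither overlapped between clones. *Crabp2* passed the filter through the clone 66 libraries of day 0, where it was high, so that its values in this comparison describe these libraries and its call adds no support. *Dhrs3* was lower in clone 66 by -0.57 (SE 0.110, adjusted p = 0.000218) and *Rdh10* by -0.42 (SE 0.120, adjusted p = 0.0113). The *Rdh10* call was lost without clone 48 replicate 2 (log2 -0.31, adjusted p = 0.149) and without a filter (log2 -0.41, adjusted p = 0.0655). *Cyp26b1* ran from 0.458 to 4.56 CPM in clone 66 and from 0.401 to 2.20 CPM in clone 48, and its direction turned without clone 66 replicate 3 (log2 -0.41, adjusted p = 0.651).

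At day 2 *Aldh1a1* was the one member called, at -0.92 (SE 0.264, adjusted p = 0.00807), against 30.0% of genes (15.5% lower). At day 6 *Aldh1a1* was -1.01 (SE 0.298, adjusted p = 0.0115) and *Dhrs3* -0.42 (SE 0.107, adjusted p = 0.00384), against 26.2% of genes (12.8% lower). The *Aldh1a1* calls at days 2 and 6 were each lost without clone 66 replicate 2 or replicate 3, at log2 differences of -0.84 and -0.77 at day 2 and of -0.83 and -0.86 at day 6. Other measures moved with the clones. The summed adipocyte markers at day 0 ran from 181 to 228 CPM in clone 48 and from 126 to 155 CPM in clone 66, and were higher in clone 48 without overlap at days 2 and 6 too. Gene by gene, most of the 7 tested adipocyte markers were not called. In clone 66, 2 were lower and 0 higher at day 0, 1 lower and 1 higher at day 2, and 1 lower and 0 higher at day 6. Epithelial markers, led by *Krt14*, summed to 1.70 to 5.19 CPM in clone 48 and 0.0470 to 0.356 CPM in clone 66 at day 0. All 4 tested pre-adipocyte and fibroblast markers were called between clones at day 0, with *Col1a1* higher in clone 66 and *Pdgfra*, *Ly6a* and *Cd34* lower (median log2 -1.34), and their sums overlapped between clones on each day. *Cd68*, the 1 tested gene of the macrophage and leukocyte list, was lower in clone 66 on each day (log2 -0.69, -0.52 and -0.54 at days 0, 2 and 6). The others of that list were near absent, *Ptprc*, *Adgre1* and *Itgam* with at most 1 count in any library and *Csf1r* with at most 20. The *Cd68* values thus do not show macrophages in either clone. The part of these markers in the clone differences was not tested.

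**Figure D5:**
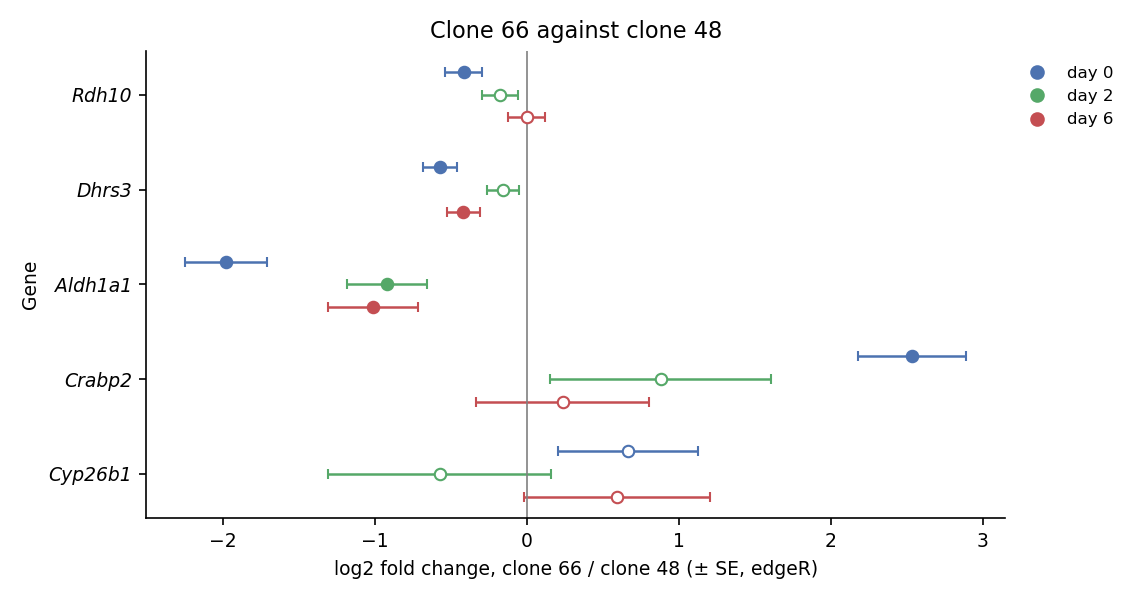
Log2 fold change from edgeR, with SE derived from its test, clone 66 over clone 48, at days 0, 2 and 6 for the 5 members that passed the filter, with filled points for an adjusted p under 0.05 and open points for the others. *Aldh1a1* lies to the left of 0 on each day, from -1.98 at day 0 to -0.92 at day 2, and *Crabp2* is at 2.54 at day 0.

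Whether the course over time differed between clones was tested directly, again without a block for pairs. No member was called, against 6.84% of genes for days 0 to 2, 6.18% for days 2 to 6 and 3.85% for days 0 to 6. *Aldh1a1* changed by 1.06 more on the log2 scale in clone 66 than in clone 48 between days 0 and 2 (SE 0.372, unadjusted p of 0.00816 in edgeR, adjusted p = 0.0877). Its mean went from 8.11 to 5.80 CPM in clone 48 and from 2.06 to 3.06 CPM in clone 66. Between days 0 and 6 the clone difference was 0.97 for *Aldh1a1* (SE 0.400, unadjusted p of 0.0223 in edgeR, adjusted p = 0.223). For *Rdh10* it was 0.42 (SE 0.171, unadjusted p of 0.0219 in edgeR, adjusted p = 0.222). *Crabp2* changed by -2.30 more in clone 66 between days 0 and 6 (SE 0.728, adjusted p = 0.0762). It passed the filter through the clone 66 libraries of day 0, which also enter this contrast, so that its calls here add no support. The calls depended on the setting. *Crabp2* was called by DESeq2 (adjusted p = 0.0294), *Aldh1a1* without a filter (adjusted p = 0.0484, against 2.17% of genes in that fit) and *Dhrs3*, for days 0 to 2, without clone 48 replicate 1 (log2 0.51, adjusted p = 0.0452). With a replicate block *Aldh1a1* and *Dhrs3* were called for days 0 to 2 (adjusted p = 0.031 and 0.0318) and *Crabp2* for days 0 to 6 (adjusted p = 0.0274).

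Genes with the most similar course over the 36 libraries were sought where the log2 CPM averaged 3 or more. *Dhrs3* was most like *Gpam* (r = 0.958) and *Agpat3* (r = 0.956), *Rdh10* like *Tyms* (r = 0.894) and *Prim1* (r = 0.883), and *Aldh1a1* like *Tmod3* (r = 0.887) and *Akt1* (r = 0.870). *Crabp2* was most like *Eno3* (r = 0.867) and *Atp10a* (r = 0.863), and *Cyp26b1* like *Asap1* (r = 0.896) and *Fmnl3* (r = 0.889). These are Pearson correlations of log2 CPM, and the libraries share days, clones and pools, so that they describe the courses only. At days 2 and 6 *Crabp2* had at most 7 counts and *Cyp26b1* at most 19. Counting error and the prior count of 2 limit the correlations of these 2 genes. Between members, *Rdh10* and *Aldh1a1* had r = 0.724, *Crabp2* and *Cyp26b1* 0.505, and *Dhrs3* and *Crabp2* -0.707.

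Other genes of the pathway were followed from day 0 to day 6, for which 32.9% of all genes were called higher and 35.4% lower. The lists were drawn up with results of these data known. Of 10 other carriers and uptake genes, 3 were tested and all 3 rose, among them *Fabp5*, a fatty acid binding protein that can also carry retinoic acid (log2 4.62, SE 0.142), and *Scarb1*, a lipid and carotenoid receptor (log2 1.43, SE 0.111). The other was *Rbp4*, with means of 0, 0.0134 and 3.36 CPM at days 0, 2 and 6. It passed the filter through its day 6 libraries, so that its direction and this count were shaped by the filter. The mean of *Fabp5* was 30.3 ± 10.2 CPM at confluence, then 946 ± 128 on day 2 and 738 ± 193 on day 6 (SD, n = 12 each). Of 17 other enzymes of retinol and retinaldehyde, 10 were tested, of which 3 rose and 2 fell by the test (median log2 0.09, against -0.03 over all genes). They included *Dhrs9* (log2 1.64, SE 0.126), *Rdh14* (log2 0.24, SE 0.098) and *Rdh11* (log2 -0.59, SE 0.124), retinol and retinaldehyde dehydrogenases or reductases. *Adh1*, *Adh7* and *Rdh16*, also tested, passed the filter through days on which they were high, which shaped the counts of this list. *Dhrs9* at 55.9 FPKM, *Rdh11* at 20.1 FPKM and *Rdh14* at 18.1 FPKM had higher mean levels per length at day 6 than *Dhrs3* and *Rdh10*.

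*Retsat*, which saturates retinol, was the 1 tested gene of 5 for retinyl esters, carotenoids and saturation, and it rose (log2 1.82, SE 0.097). Of 5 further genes of retinoic acid synthesis and breakdown, 2 were tested and both fell. One was *Cyp1b1*, a cytochrome that can oxidise retinoids, which fell from 461 ± 65.2 CPM at day 0 to 81.6 ± 11.5 at day 6 (SD, n = 12 each; log2 -2.49, SE 0.139). The other, *Cyp2s1*, had means of 0.542, 0.0346 and 0.109 CPM at days 0, 2 and 6. It passed the filter through its day 0 libraries, so that its direction was shaped by the filter. Of 7 receptor genes, 6 were tested, 5 rose and 1 fell, with *Rara* at 1.07 (SE 0.285), *Ppard* at 0.92 (SE 0.230), *Rxra* at 0.62 (SE 0.110) and *Rarg* at -1.03 (SE 0.092). Among those that rose, *Rxrg* had means of 0, 0.0100 and 2.16 CPM at days 0, 2 and 6. It passed the filter through its day 6 libraries, so that its direction was shaped by the filter. The *Rxra* counts cannot separate vector from endogenous transcripts. Their mean was highest at day 2, with 161 ± 39.8, 542 ± 91.7 and 246 ± 53.7 CPM at days 0, 2 and 6 (SD, n = 12 each). *Rarg* passed through a low at day 2, with means of 47.5 ± 12.0 CPM at confluence, 7.35 ± 1.62 on day 2 and 23.2 ± 6.24 on day 6 (SD, n = 12 each). Of 13 known retinoic acid targets, 9 were tested, 5 rose and 2 fell (median log2 0.89, against -0.03 over all genes). Those named by the largest change were *Rarres2*, which encodes chemerin (log2 7.23, SE 0.219), the transglutaminase *Tgm2* (log2 3.85, SE 0.098) and the corepressor *Nrip1* (log2 1.74, SE 0.154). *Rarb*, a classical target named here for its role after its values were seen, had at most 8 counts in any library and was not tested. Of these 6 lists, none held a gene called between genotypes.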

How the data were processed

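RNA was sequenced from 36 libraries prepared with a stranded total RNA kit. The authors aligned the reads to GRCm38 (mm10) with STAR 2.7.0d, used featureCounts 1.6.2 with the GENCODE M21 annotation, ignoring strand, and deposited raw counts per gene without filter or normalization. Each gene symbol was taken from GENCODE M21. Exons of the members shared 0 bases with other genes.

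Counts were filtered with filterByExpr (minimum count 10), scaled by TMM and fitted with the quasi-likelihood test of edgeR 4.0.16 in R 4.3.3. The model held each genotype and day plus the clone, as in the study, or each clone, genotype and day for clone contrasts. Benjamini-Hochberg adjustment covered all 16723 genes tested, and genes under 0.05 were called. CPM and FPKM were computed from TMM-scaled library sizes, and promoter windows came from RefSeq. The main alternative test was DESeq2 1.42.0, and scripts were tested on simulated data. Counting error limits genes of few reads.

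Groups came from the sample labels. Same-numbered *Rxra*WT and *Rxra*SA libraries of a clone and day deviated together, with correlations of 0.176 to 0.93 in 18 of 18 pairs over 9381 genes, and were taken as pairs. Across days, 55 of 72 pairs exceeded 0.1, and numbers were not taken as pairs.

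Named genes were all 9 members, up to 3 genes of each pathway list with the largest called change from day 0 to day 6 at an average log2 CPM of at least 2, the 2 genes of average log2 CPM 3 or more that correlated best with each member reaching a mean of 1 CPM in some clone and day, and *Rxra*. The members and lists were chosen with earlier results of these data known.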

Additional observations from a re-analysis of the deposited data

Results flagged for a closer look

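One of 30 groups of 6 libraries, a clone on a day, held a *Crabp2* value apart from the rest. In clone 48 at day 2, *Rxra*SA replicate 3 had 0.276 CPM, or 5 counts, and the next library had 0.0650 CPM, or 1 count. Chance flags about 1 in 20 such groups.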

How the results depend on the processing

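Counts of called members kept within 1.5 times their value under most of the alternatives, and day 0 to 6 changes of *Dhrs3*, *Rdh10*, *Aldh1a1*, *Crabp2* and *Cyp26b1* were called in all 18 settings. Without a filter, which tests all 9 members, 7 were called from day 0 to day 2 (41.6% of 36853 genes in that fit), 8 from day 0 to day 6 (38.2%) and 1 for the clone difference in the day 0 to 2 change (2.17%). Leaving out replicates gave 0 to 1 called members between clones at day 2, 1 to 2 at day 6, and 0 to 1 for the clone difference in the day 0 to 2 change, the call being *Dhrs3* without clone 48 replicate 1 (0.51, adjusted p = 0.0452). With the replicate block that difference was called for 2 members, *Aldh1a1* (adjusted p = 0.031) and *Dhrs3* (adjusted p = 0.0318), and that of day 0 to 6 for 1, *Crabp2* (adjusted p = 0.0274), which DESeq2 also called as its 1 member. The *Crabp2* calls add no support, since the clone 66 libraries of day 0 carried it through the filter. The block changed no other call of a member, and it was not run for the clone differences on a day. Values whose sign turned were all uncalled in those settings: *Rdh10* from day 0 to 2 was -0.062 with library size alone. *Aldh1a1* for the same days was 0.043 with clone-specific groups, 0.027 without a filter, 0.006 with the compared days alone and -0.241 to 0.23 with a replicate left out. Between clones, leaving out a replicate gave -0.415 to 1.285 for *Cyp26b1* at day 0, -0.928 to 0.727 for it at day 2, -0.128 to 1.902 for *Crabp2* at day 2 and -0.135 to 0.122 for *Rdh10* at day 6. *Rdh10* at day 6 was 0.015 without a filter, 0.002 with the compared day alone and 0.001 without the shallowest library. Apart from the filter, the cause was not tested. Mean FPKM of the 5 filtered members moved by less than 1 SD with library size alone or with a replicate left out. Genes under 10 counts per library are limited by counting error.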
